A study of Xenopus tropicalis with 4 samples.

Results

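The whole-body 3' end landscape of adult female Xenopus tropicalis, a diploid clawed frog, was described from the 2 female libraries of a series of 4. Members were chosen by sample label: the libraries titled as adult female 1 and adult female 2, each made from total RNA of the whole-body homogenate of a single frog. No genotype, strain, treatment or age beyond adulthood is given in the labels. The 2 males of the series were not analysed here, and no value below is a comparison of the sexes.

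In WTTS-seq (whole transcriptome termini site sequencing) a read is taken to report the end of a polyadenylated RNA, so that each molecule is sampled at its 3' end and no scaling by gene length was applied. Most animal pre-mRNAs are cut and given a poly(A) tail downstream of a signal in the last exon, and many genes carry several such sites, whose choice sets the length of the transcript's end or, in an intron, truncates the message. The body of an adult female frog holds an ovary with oocytes at many stages. Oocytes store large amounts of mRNA for the embryo, and lengthening or shortening of poly(A) tails in the cytoplasm controls when those mRNAs are translated. A-rich stretches inside an RNA can also be primed, which was not examined here for want of site sequences.

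Female 1 had 2380500 reads and female 2 had 1778737. Levels are given in CPM, the usual scaling of reads to a common library size, here the TMM effective size of the 2 females, on which 0 reads allow a level of up to 1.39 CPM in female 1 and 1.53 CPM in female 2 (3 reads; counting error only). The labels name no molecular identifiers. The intervals below, 95% exact binomial, therefore cover counting error only; error between frogs is given as the SD of 2 values. In female 2 a single site without a gene, on an unplaced scaffold, held 10.2% of the reads (interval 10.1 to 10.2%) against 0.0928% in female 1 (0.0890 to 0.0967%).

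The 4 genes proposed as markers of a female with eggs had reads in both libraries. zp4, an egg coat protein gene, had 1236.5 CPM in female 1 and 770 CPM in female 2. velo1, the gene of a Balbiani body protein of oocytes, had 632 and 889 CPM. pou5f3.3, a maternal POU-domain transcription factor gene, had 1137 and 765 CPM. rrm2.2, a ribonucleotide reductase subunit gene, had 9985 and 2403 CPM and differed most between the frogs. These genes were proposed with results of these data in view, so reads in both females were known beforehand, and their presence is neither a check of the label nor a finding.

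All 4 markers ended mainly at a single place. rrm2.2 (chromosome 5, plus strand, 134145019) and zp4 (chromosome 3, plus strand, 5455887) each had 1 used site, with 100% and 100% of the gene's reads in female 1 and 100% and 99.7% in female 2. In pou5f3.3 the last of 3 used sites (chromosome 8, minus strand, 503680) held 99.1% and 98.5% of the gene's reads. In velo1 the last of 4 used sites (chromosome 6, minus strand, 26121082) held 99.05% and 93.8%. A used site here has at least 10 reads summed over the females and at least 1 in each.

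Sites overlapping an annotated exon held the largest share of reads of the 7 positions in both libraries. The class code of each site, read as in Cuffcompare, places it relative to the annotation. Sites overlapping an exon, which reach past an annotated exon edge, held 53.9% of reads in female 1 and 43.5% in female 2. Sites lying wholly inside an exon held 26.7% and 28.6%, and sites downstream of a gene 6.06% and 5.18%. Sites across an exon and an intron held 3.25% and 3.88%, and sites within an intron 2.48% and 1.75%. Sites on the strand opposite to an exon held 3.59% and 2.67%, and sites without a gene 3.98% and 14.4%.

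The excess of reads without a gene in female 2 lay at the scaffold site. That site took 70.8% of her reads without a gene, and leaving it out of both libraries gave 3.89% and 4.67% without a gene. Without it the share of reads overlapping an exon was 53.9% in female 1 and 48.5% in female 2, and the share inside an exon 26.8% and 31.9%. Over all sites, the counting intervals of the 7 positions were at most 0.146 points wide, less than the distance between the frogs for each position. With n = 2 the spread between frogs allows no test.

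**Figure D1:**
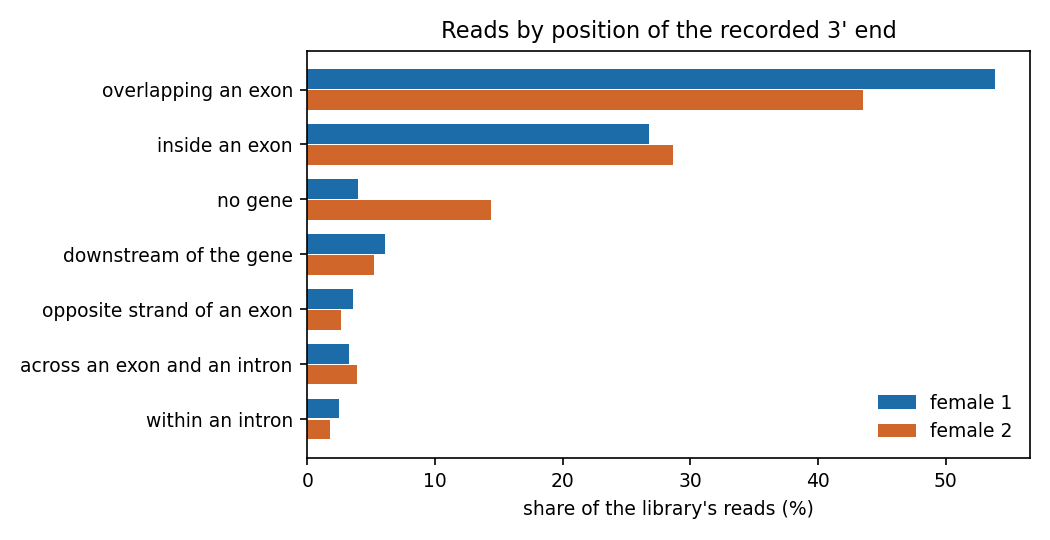
Bars give the share of each female library's reads (percent, x axis) at sites of each position relative to the annotation (y axis), with female 1 in blue and female 2 in orange. Sites overlapping an exon lead in both, at 53.9% and 43.5%, and sites without a gene stand at 3.98% and 14.4%.

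Counted as sites and not as reads, the order was another. Sites inside exons made up 43.5% and 48.3% of the sites with reads in females 1 and 2, and sites overlapping an exon 17.9% and 16.4%. A site overlapping an exon carried 161 and 93.6 reads on average, a site inside an exon 32.9 and 20.9, and an intronic site 9.81 and 5.71. Intronic sites were thus many, 6019 and 5451 with reads, and thinly read. Most intronic reads were on the gene's own strand, 2.22% and 1.55% of the libraries against 0.256% and 0.199% on the opposite strand.

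Among downstream, intronic and exon-intron sites, the most read site held a minor part of each position's reads. The most read downstream site of each frog held 16.6% of such reads in female 1 and 13.4% in female 2. Across an exon and an intron it held 7.45% and 4.24%. Among downstream sites, the one of ncbp3, a nuclear cap-binding protein gene (chromosome 2, plus strand, 44185660), had 24011 and 2101 reads. The downstream site of LOC108645643 (chromosome 1, minus strand, 461511) had 728 and 12298 reads, and that of ctsd, the gene of the lysosomal protease cathepsin D, had 4481 and 1357. The first was high in female 1 and the second in female 2. Among intronic sites, 1 in mgarp, a mitochondrial protein gene (chromosome 1, minus strand, 51843335), had 8968 and 1851 reads. These were 15.2% and 5.95% of the intronic reads of females 1 and 2. The next intronic sites, in LOC100127788 and LOC105948311, had 1492 and 260 reads and 1086 and 203 reads. Among sites across an exon and an intron, those of dgat2, hdgf and chd1 led, with 5756 and 834, 2258 and 2926, and 3020 and 1343 reads. dgat2 encodes an enzyme of triglyceride synthesis and chd1 a chromatin remodeller.

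The most read site of all those with a gene lay on the opposite strand. A site on the strand opposite to ube2v1, a ubiquitin-conjugating enzyme variant gene (chromosome 10, plus strand, 28230406), had 59440 reads in female 1 and 14043 in female 2. That is 2.50% and 0.789% of the libraries and 69.6% and 29.6% of their reads opposite to exons. On its own strand ube2v1 had 695 and 406 reads. The nearest upstream site with reads on the plus strand that belonged to another gene was 263612 bases away, in snai1, with 7 and 6 reads.

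The site opposite to max, a bHLH partner of Myc (chromosome 8, minus strand, 99417458), had 2258 and 10612 reads. The site opposite to rbpms2, which encodes an RNA-binding protein (chromosome 3, plus strand, 85212914), had 16 and 9340. Own-strand reads were 181 and 217 in max and 197 and 448 in rbpms2. Of these 3 opposite sites, that of ube2v1 was higher in female 1 and those of max and rbpms2 in female 2. The 6 most read opposite sites each had more reads than their gene's own strand in at least 1 frog. Among them, a site opposite to mtfp1 (1368 and 165 reads; singled out after its values were seen) lay 950 bases downstream of a site of the egg coat gene zp3.2. Strand was taken from the deposited table, and sites on the opposite strand were left out of the gene levels below.

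Reads without a gene were led by 1 site in female 2, where the most read site took 70.8% of them. In female 1 her most read site took 2.83%. The sites named here are ranked by reads summed over the females. After the scaffold site (position 89245, minus strand, 2209 and 181135 reads, 991 bases wide), a site on chromosome 5 (plus strand, 110079077) had 40 and 8669 reads. The next, on chromosome 6 (plus strand, 58995051), had 2186 and 1694. The first 2 were high in female 2, and the last was at a like level in both, at 1010.4 and 866 CPM.

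Most of the 30 most read genes had a higher level in female 1. The highest mean level was that of sepp1, which encodes selenoprotein P, a secreted selenium carrier (chromosome 1, plus strand, 182145564). It had 13256 CPM in female 1 and 890 CPM in female 2, a mean of 7073 ± 8744 (SD, n = 2). rrm2.2 followed with 6194 ± 5361 CPM, then ncbp3 with 11163 and 1133 CPM and hmgn2, a nucleosome-binding protein gene, with 11273 and 905 CPM. These levels were set by female 1, and the SD was near or above the mean in sepp1, ncbp3 and hmgn2. The level of ncbp3 rested on its site downstream of the annotated gene, with 99.4% and 94.8% of the gene's reads. Among the 30, LOC108645643 likewise had 100% and 100% at a downstream site. In mgarp an intronic site held 99.9% and 99.5%.

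Others were close in the 2 frogs. cirbp, a cold-inducible RNA-binding protein gene (chromosome 1, minus strand, 81001002), had 3583 and 3150 CPM, a mean of 3367 ± 306. rbm6, an RNA-binding protein gene, had 3280 and 2609 CPM, and the uncharacterized locus LOC100493542 had 2010 and 2502. fth1, the ferritin heavy chain gene, had 2753 and 1768 CPM.

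Of the 30 genes of highest mean level, 28 had more CPM in female 1 (27 when scaled by library size alone) and 2 in female 2. Of these, 11 were more than 4-fold higher in female 1, where 3.78% of all genes with a mean of at least 10 CPM were. Scaled by library size alone, 7 were, where 204 of 7948 genes were. A single gene was more than 4-fold higher in female 2, against 3.14% of all genes, LOC108645643 with 336.5 and 6283.5 CPM. The 30 were ranked by the mean of these same 2 libraries, so a gene very high in 1 frog could enter through that frog. These counts therefore cannot be read as an excess over all genes. The group held 13.5% of the reads of female 1 and 5.63% of female 2. It holds several ribosomal genes, among them rps9 with 6794 and 2438 CPM, rplp1 (4798 and 2119), rps21 (3582 and 1799), fau (3258 and 1630) and rpl8 (3261 and 1431). It holds the muscle genes ckm (4984 and 1533 CPM), aldoa (4521 and 1470) and myl1 (2901 and 1247), which encode creatine kinase, a glycolytic aldolase and a myosin light chain. Reads of near-identical copies, as in actins, aldolases and ribosomal genes, cannot be assigned with certainty.

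The rest of the 30 had varied roles. lmnb1, a lamin gene, had 6132 and 1381 CPM, top1.2, a topoisomerase I gene, 2989 and 1502, and gnl3, a nucleolar GTPase gene, 3961 and 964. g3bp1, whose product nucleates stress granules, had 3774 and 997 CPM, ppp1r8, a phosphatase regulator gene, 4177 and 263, and the immediate early gene ier2 4406 and 877. These 6 are among the 28 of 30 with a higher level in female 1. The remaining members were the actin gene actg1 (4561 and 1951 CPM), the glycolytic gene tpi1 (3258 and 1311), ubl4a (5589 and 527), fam46c (3924 and 2022), mgarp (4148.5 and 951) and the apolipoprotein gene apoa4 (4437 and 519).

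Gene reads leave out sites without a gene and opposite-strand sites, and were 92.2% and 82.8% of the libraries of females 1 and 2. They were more concentrated in female 1. Her 10 most read genes held 7.78% of gene reads, the first 100 held 28.5% and the first 1000 held 66.0%. The same numbers of genes held 4.08%, 17.9% and 54.0% in female 2. It took 402 genes to reach 50% of the gene reads in female 1 and 823 in female 2. At least 1000 CPM was reached by 153 genes in female 1 and 63 in female 2, at least 10 CPM by 7688 and 7873. The frogs shared 4 of their 10 and 56 of their 100 most read genes with a symbol. In female 2 the first ranks were LOC108645643, pagr1 (137 and 3897 CPM), cirbp and ctrc, a chymotrypsin gene of the pancreas (588 and 2654 CPM).

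**Figure D2:**
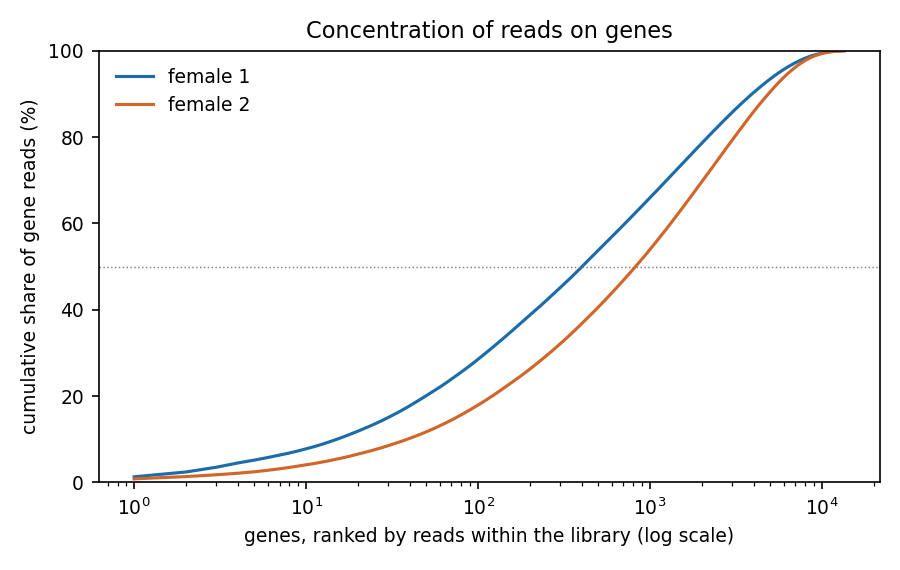
Lines give the cumulative share of gene reads (percent, y axis) over genes ranked by reads within each library (log scale, x axis), with female 1 in blue and female 2 in orange. The dotted line marks 50%, which female 1 reaches at 402 genes and female 2 at 823.

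About as many genes ended in 1 place as in several. Of 10290 genes with a used site on their own strand, 4997 (48.6%) had 1 used site, 2493 (24.2%) had 2 and 470 (4.57%) had 6 or more. The mean was 2.14 sites per gene, over 21970 used sites. The number moved with the depth of the gene, in part by definition, since each used site needs at least 10 reads. Genes with 10 to 99 reads had a mean of 1.35 used sites and 27.7% of them had 2 or more, genes with 100 to under 1000 reads 2.67 and 71.5%, and genes with 1000 to under 10000 reads 3.94 and 75.04%. Of the 23 genes with 10000 reads or more, 6 had 1 used site, and their mean was 2.26.

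**Figure D3:**
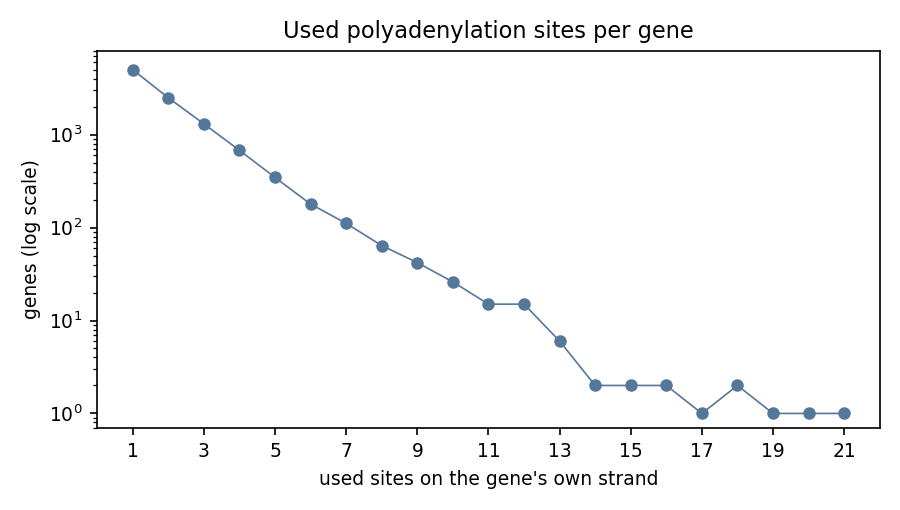
Points give the number of genes (log scale, y axis) with each number of used sites on the gene's own strand (x axis), over both females. The count falls from 4997 genes with 1 site to 1 gene with 21.

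In each of the 6 genes with the most used sites, most of the used sites lay inside exons. ankrd11, a chromatin regulator gene (chromosome 4, minus strand), had 21 used sites over 55207 bases, of which 18 lay inside exons. Its leading site, at 61181882, took 29.3% of the gene's used-site reads in female 1 and 24.7% in female 2. golgb1, a Golgi protein gene, had 20 (19 inside exons), with a leading site at 45.7% and 16.3%. mki67, the Ki-67 proliferation marker gene, had 19 (16 inside exons), with a leading site at 21.2% and 18.5%. zc3h13, which encodes a subunit of the RNA methylation machinery, had 18, led by a site across an exon and an intron with 58.7% and 40.7%. The chromatin remodeller genes chd7 and atrx had 18 and 17, with leading sites at 41.8% and 21.4% and at 20.8% and 19.6%. The leading site took like shares in both frogs in ankrd11, mki67 and atrx, and a smaller share in female 2 in golgb1, zc3h13 and chd7.

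The last used site was the leading site in fewer than 50% of genes with several. Among 5279 such genes of known strand, the most read site was the most downstream in 47.4%, the most upstream in 29.9% and in between in 22.7%. Among the 2486 genes with 2 used sites it was the last in 59.8%, and among the 2793 with 3 or more in 36.3%. Taken from each library alone, with at least 10 reads per site, the last site led in 44.9% of genes in female 1 and 49.9% in female 2. Over all genes with a used site, the leading site overlapped an exon in 49.2%, lay inside an exon in 38.3%, downstream of the gene in 8.50%, within an intron in 2.41% and across an exon and an intron in 1.59%.

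Neighbouring used sites of a gene lay a median of 706 bases apart, with the middle 50% between 253 and 2668.5 bases, and 7.26% were under 100 bases apart. The used sites of a gene spanned a median of 2025 bases. Distances are along the genome, introns included.

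Several genes, some of them abundant, divided their reads between ends. In apoa4 (chromosome 7, minus strand) a site inside an exon at 83943766 took 75.6% of the gene's reads in female 1 and 44.7% in female 2, and the last site, 340 bases further at 83943426, took 24.2% and 51.6%. The order of the 2 sites was thus opposite in the 2 frogs. In myl1 the upstream site, 165 bases from the last, took 65.3% and 69.4%. In top1.2 the first of 9 used sites led, with 78.4% and 59.8%. In fam46c the last site took 86.0% and 71.9%. In the less read egg coat gene zp2 (chromosome 9, minus strand) the first site held 59.9% and 37.3% (118 and 94 reads). The last site of zp2, 443 bases downstream, held 10.7% and 26.6% (21 and 67 reads). In vtga2, a vitellogenin gene (chromosome 4, plus strand), the last of 5 sites held 67.5% and 28.7% (338 and 116 reads).

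In pabpc1, which encodes the main cytoplasmic poly(A)-binding protein, 6 sites were used over 13947 bases of chromosome 6. The site at 115763655 led in female 1 with 38.8% and took 26.2% in female 2, where the last site led with 33.3% against 13.8%. incenp, a subunit of the chromosomal passenger complex, had 7 used sites. A site across an exon and an intron at 13636486 on chromosome 4 led in female 1 (36.4% and 21.5%), and another at 13637035 led in female 2 (17.0% and 28.6%). These genes with divided reads, other than those among the most read, were singled out after their values were seen.

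The 2 females agreed in gene levels more than in sites. Of 58169 sites with reads in either female, 36846 (63.3%) had reads in both, and these held 98.9% of the reads of female 1 and 97.0% of female 2. Sites overlapping an exon were shared in 88.9% of cases, sites inside an exon in 65.1% and intronic sites in 37.1%. Across 14378 genes with reads, log2(CPM + 1) correlated at a Pearson r of 0.89 and a Spearman rho of 0.89. Across sites with reads the values were 0.78 and 0.58. Over the 7938 genes with a mean of at least 10 CPM, r was 0.78. These correlations are across genes or sites, which are no independent replicates.

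Female 2 had more sites from fewer reads. She had reads at 50479 sites and female 1 at 44536, or at 42250 when female 1 was thinned to the 1778737 reads of female 2. Sites read in 1 frog only numbered 13633 in female 2 and 7690 in female 1, and 7125 and 2138 of these lay inside exons. For intronic sites the order was the other way, with 2348 in female 2 and 2916 in female 1. No site read in 1 frog only had more than 419 reads.

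Of the 7938 genes, 549 (6.92%) were more than 4-fold apart on the log2(CPM + 1) scale, 300 (3.78%) higher in female 1 and 249 (3.14%) higher in female 2, while 71.9% lay within 2-fold. Each side is 1 frog, so these differences have no replicate check. Of the genes apart, 54.6% were higher in female 1 under TMM and 35.4% when scaled by library size alone. The median log2 difference of all genes, female 2 over female 1, was 0.04 and 0.32 under these 2 scalings, so directions of small differences depend on the scaling.

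**Figure D4:**
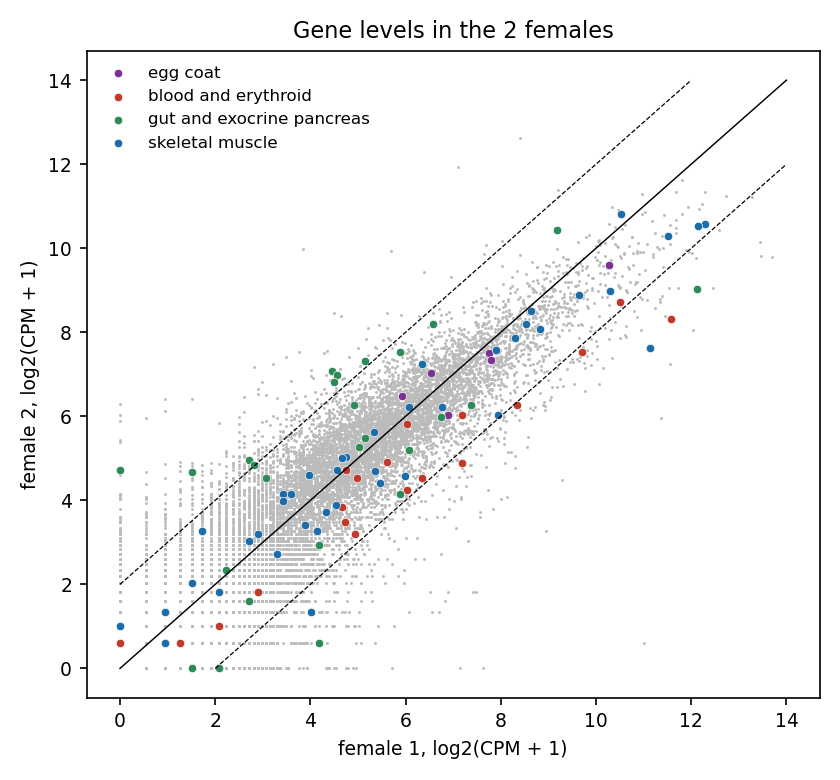
Each point is a gene, with log2(CPM + 1) in female 1 on the x axis and in female 2 on the y axis, and 4 gene lists in colour. The solid line marks equal levels and the dashed lines a 4-fold difference, outside which 6.92% of genes with a mean of at least 10 CPM lie.

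The genes furthest apart at a mean of at least 100 CPM were led by hadha, the gene of a mitochondrial fatty acid oxidation enzyme. It had 4435 reads in female 1 and 1 read in female 2, a ratio of 4012 (counting interval 719.7 to 158510). LOC108648387 had 494 and 8.69 CPM, fam46a 2628 and 60.8, rtcb, an RNA ligase gene, 625 and 21.5, the splicing factor gene smndc1 3017 and 151, and the ileal fatty acid binding protein gene fabp6 280.1 and 15.8. These 6 were high in female 1.

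On the side of female 2, gpa33, which encodes a cell surface antigen of the gut, had 13.4 and 1015 CPM, pagr1 137 and 3897, sh3bp5l 50.8 and 978, LOC108645643 336.5 and 6283.5, the magnesium transporter gene slc41a2 21.7 and 351.0 and LOC101734670 24.0 and 333. In gpa33 and pagr1 the reads of female 2 were at a site inside an exon. That site took 97.6% of gpa33 and 98.0% of pagr1 in female 2 against 10.3% and 18.9% in female 1. At the last site, which overlaps an exon, gpa33 had 26 and 43 reads and pagr1 240 and 150. The difference in both genes was thus at 1 of their 2 ends.

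The leading site was the same in both females in 3602 of 4603 genes (78.3%) that had 2 or more used sites and at least 20 reads in each frog. A used site needs at least 1 read in each frog. A site read in 1 frog only could thus not count as a disagreement, and the share is in part set by that filter. For shares, the leading site was that of most reads summed over the females. Its share of the gene's used-site reads had a median of 71.3% in female 1 and 65.8% in female 2. It was lower in female 2 in 61.4% of genes. Female 1 had more reads, so this choice leans towards her sites, and the direction cannot be read as a difference between the frogs. The median distance between the frogs was 11.7 points, and 44.0% of genes were within 10 points. In 9.58% of genes the leading site took more than 90% in both, in 11.2% it took less than 50% in both, and in 104 genes it was more than 50 points apart.

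Over the gene lists, counts of members more than 4-fold apart are to be read against 6.92% of all genes with a mean of at least 10 CPM. In the lists named for the egg or oocyte, the frogs were close for some members and far apart for others. In a whole-body homogenate, reads of a listed gene cannot be assigned to eggs or to other cells. The egg coat list had 6 members with reads, which held 0.176% and 0.153% of the libraries. Beside zp4, zpd had 214 and 181 CPM, zp3.2 221 and 160, zp2 91.1 and 129, zpy1 117 and 64.4 and zpax 59.6 and 88.9. None of the 6 was more than 4-fold apart, a count too small to set against the 6.92% of all genes, and the ratio was highest in zpy1, at 1.82-fold. Genes of the Balbiani body, germ plasm and vegetal cortex held 0.301% and 0.333%. rtn3, a reticulon gene, had 1402 and 555 CPM, the vegetal T-box factor gene vegt 125 and 202, nanos1, a translational repressor of the germ line, 175 and 118.

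Of the 20 members of that list with at least 10 CPM, 3 were more than 4-fold apart, against 6.92% of all genes. ddx4, the germ cell helicase gene vasa, had 15.3 and 136 CPM and was high in female 2. A single site across an exon and an intron held 82.4% of its reads in female 2 and 0% in female 1. The other 2 were copies that share the symbol wnt11, with 110 and 17.9 CPM in 1 and 4.62 and 27.6 CPM in the other, so that each frog was high in a different copy.

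Transcription and growth factor genes of the oocyte held 0.227% and 0.232%, with 0 of 14 more than 4-fold apart, near the 6.92% of all genes for so few. sox11 had 419 and 334 CPM, gtf3a, the gene of the 5S gene factor TFIIIA that also binds stored 5S RNA, 202 and 189, e2f1 199 and 154, zic2 146 and 116 and sox3 68.0 and 151. The list's median log2 difference, female 2 over female 1, was -0.20, and 0.07 with library size alone.

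Storage and tail-control genes held 0.680% and 0.811%, with 1 of 31 more than 4-fold apart, cpsf2 (5.08 and 31.7 CPM). eef1a1o, an oocyte form of elongation factor 1 alpha, had 1298 and 1219 CPM, and zar1l, an oocyte RNA-binding protein gene, 1052 and 956. pabpc1 had 832 and 766 CPM, igf2bp3 504 and 234, patl2, an oocyte translational repressor gene, 406 and 231, and eif4enif1 366 and 268. The first 3 of these differed by at most 1.1-fold. cpeb1, the gene of the protein that binds the cytoplasmic polyadenylation element, had 170 and 419 CPM.

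Cell cycle and replication genes held 1.76% and 1.39%, of which rrm2.2 alone held 0.907% and 0.264%. After rrm2.2 came the cyclin gene ccna1 (1237 and 1536 CPM), incenp (847 and 864.5), the importin gene kpna7 (679 and 588), the kinase gene aurkb (679 and 536) and the sliding clamp gene pcna (469 and 693). Of 42 members with at least 10 CPM, rrm2.2 and the helicase subunit gene mcm4 (844 and 174 CPM) were more than 4-fold higher in female 1, and bub1b (6.93 and 57.7) and mcm5 (6.93 and 34.7) in female 2. With library size alone 0 members were more than 4-fold higher in female 1 and 4 in female 2, against 204 and 372 of 7948 genes. Under TMM, 27 of the 42 were higher in female 2 by any amount and 15 in female 1. The list's median log2 difference, female 2 over female 1, was 0.31 against 0.04 for all genes. By library size alone it was 0.58 against 0.32.

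The chromatin list named for the egg held 2.74% and 1.32%, of which hmgn2 alone held 1.02% and 0.0996%. The part of these reads that came from eggs is not known. Of 20 members, 2, hmgn2 and lmnb1, were more than 4-fold higher in female 1, against 3.78% of all genes. With library size alone 1 member was more than 4-fold higher in female 1 and 1 in female 2, against 204 and 372 of 7948 genes. The histone chaperone gene nasp had 2078 and 1850 CPM, hmgb2 1167 and 1119, and h1foo, the oocyte linker histone gene, 1070 and 1129, each at most 1.12-fold apart. hmgb1 had 2699 and 744 CPM.

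Lists of somatic tissues held uneven shares of reads. The lists differ in length, and some of their symbols are not among the deposited genes, so a low share need not mean a poorly represented tissue. In a whole-body homogenate, fewer cells of a type and less RNA per cell cannot be told apart. Skeletal muscle genes held 1.90% and 1.02% of reads, with 1 of 31 members more than 4-fold apart, the parvalbumin gene pvalb.1 (2257 and 195 CPM). Beside ckm, aldoa and myl1, acta1, the skeletal actin gene, had 1463 and 1806 CPM and the fast troponin gene tnni2 1248 and 501.

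Blood and erythroid genes held 0.578% and 0.143%, and 15 of 15 members with at least 10 CPM were lower in female 2, or 13 of 15 when scaled by library size alone. The list's median log2 difference, female 2 over female 1, was -1.74 against 0.04 for all genes. By library size alone it was -1.48 against 0.32. Of the 15 members, 4 were more than 4-fold higher in female 1, against 3.78% of all genes. By library size alone 2 were, against 204 of 7948 genes. The globin gene hba1 had 3065 and 318 CPM, hbg1 1446 and 422, hba3 833 and 182 and hbg2 323 and 76.6. alas2, the erythroid enzyme of heme synthesis, had 145 and 28.6 and urod, another enzyme of that pathway, 144 and 63.9.

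Liver and plasma genes held 0.352% and 0.188%, and 20 of 22 members with at least 10 CPM were lower in female 2, or 18 of 22 when scaled by library size alone. The 6 members more than 4-fold apart were apoa1 (740 and 108 CPM), ambp (485 and 70.0), serpina3 (165 and 23.0), the prothrombin gene f2 (75.3 and 15.8), itih2 (35.6 and 3.58) and hpx, the hemopexin gene (20.8 and 4.09). The fibrinogen chain genes fga and fgg, at 484 and 364 and at 495 and 246 CPM, stood closer. vtga2, whose product is the yolk precursor made in the liver of laying females, had 232 and 206 CPM, a mean of 219 ± 17.8. The 6 past 4-fold, all higher in female 1, are to be read against 3.78% of all genes. With library size alone 4 of the 22 were more than 4-fold higher in female 1, against 204 of 7948 genes. The list's median log2 difference, female 2 over female 1, was -0.91 against 0.04 for all genes. By library size alone it was -0.64 against 0.32.

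The gut and pancreas list went both ways between the frogs. It held 0.529% and 0.374%, of which apoa4 alone held 0.403% and 0.0571%. Of 21 members with at least 10 CPM, 8 were more than 4-fold higher in female 2, against 3.14% of all genes. In female 1 that held for 1 member. The 8 encode enzymes or secretory proteins of the pancreas: ctrb2 (34.7 and 158 CPM), cpa1 (20.8 and 134), ctrl (22.6 and 126), amy2a (21.7 and 111), cel (5.55 and 30.1), clps (6.01 and 27.6), the less read of 2 genes with the symbol sycn (1.85 and 24.5) and prss3. prss3 had 0 and 50 reads, at least 18.4-fold higher in female 2 against 3 reads. Of the 8, cel, clps, this sycn gene and prss3 reached a mean of 10 CPM only through female 2. The trypsin gene try10 had 575 and 1386 CPM, the more read of 2 genes with the symbol prss1 94.3 and 292, and cpb1 58.2 and 182. Other pancreatic members had more reads in female 1, amy2b with 107 and 62.3 CPM and pnliprp2 with 37 and 1 reads, the latter below a mean of 10 CPM. Among genes of absorptive cells, apoa4 with 4437 and 519 CPM and the peptide transporter gene slc15a1 with 165 and 75.6 were higher in female 1, and the fatty acid binding protein gene fabp2 had 34.7 and 43.9. The list's median log2 difference, female 2 over female 1, was 1.45 against 0.04 for all genes.

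Skin and epithelial genes held 0.244% and 0.297%, led by krt18 (1722 and 1230 CPM), epcam (260.2 and 761), the desmoplakin gene dsp (334 and 237) and jup (145 and 217). krt12 and krt14 were in the table with 0 reads in both frogs. In the oviduct and ciliated epithelium list tubb4b, a tubulin gene, took nearly all reads, with 1954 and 955 CPM, and no other member reached a mean of 10 CPM.

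Other somatic lists held few reads. Symbols that are not among the deposited genes could collect none. Of 17 leukocyte symbols 9 were present, of 20 follicle cell symbols 12 and of 24 nervous system symbols 18. Nervous system genes held 0.00849% and 0.00495%, led by nefl (28.7 and 4.60 CPM) and mbp (6.93 and 22.5). Connective tissue and bone genes held 0.0229% and 0.0164%, led by fn1, the fibronectin gene (23.6 and 68.0), sparc (61.0 and 19.4) and col1a1 (63.8 and 12.8). Leukocyte genes held 0.00483% and 0.00231%, led by ptprc (31.0 and 5.11) and cd74 (12.9 and 7.66). Follicle cell and ovary stroma genes held 0.00197% and 0.00247%, or 47 and 44 reads, and none reached a mean of 10 CPM. cyp17a1, a steroid synthesis enzyme gene, had 10 and 16 reads. Differences among these low lists were not tested.

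**Figure D5:**
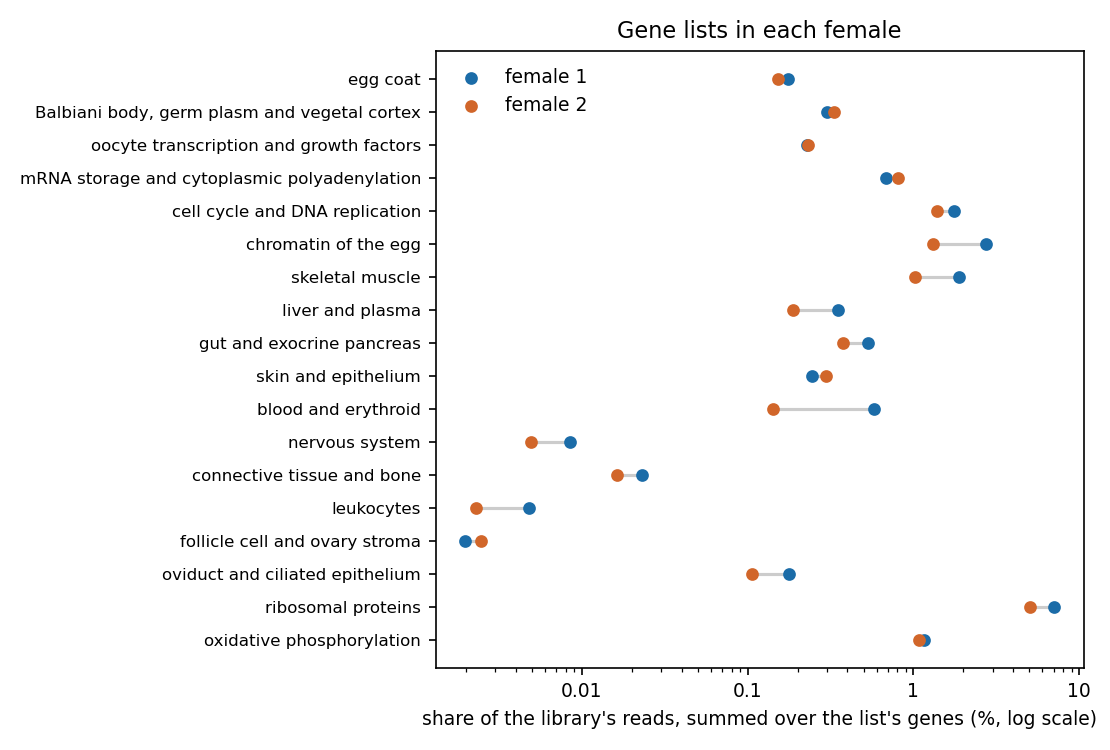
Points give the share of each female library's reads (percent, log scale, x axis) summed over the members of each gene list (y axis), with female 1 in blue and female 2 in orange. Of the lists plotted, the blood list lies furthest apart, at 0.578% and 0.143%, and the oocyte factor list closest, at 0.227% and 0.232%.

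Housekeeping groups were read at high levels. Ribosomal protein genes, 77 in all, held 7.07% and 5.02% of the libraries, and 0 of 73 members with at least 10 CPM were more than 4-fold apart. Oxidative phosphorylation genes, 73 in all, held 1.16% and 1.08%, with 2 of 71 more than 4-fold apart. cox6a1 led that group with 1681 and 581 CPM, then atp5o with 1214 and 679. Ribosomal and oxidative phosphorylation genes had a median of 1 used site, against 2 for all genes with a used site. The storage list and the chromatin list had a median of 3. A median of 1 was also that of the gut, skin, blood, nervous system, connective tissue, follicle cell and oviduct lists. In the last 4 it rests on 6, 10, 1 and 2 genes with a used site. Taken from each library alone, with at least 10 reads per site, the median of all genes was 1 in both females. The median of 2 thus holds for the frogs pooled. Depth, with which the number of used sites moved, was not matched between lists.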

How the data were processed

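Per the labels' protocols, Trizol RNA was fragmented and enriched for poly(A) RNA before reverse transcription, sizing and PCR. The submitters' processing notes name Bowtie2 2.2.3. The name of the genome build, the grouping of reads into sites and whether positions count from 0 or 1 were not found in the labels or the table. The authors deposited raw read counts per site, with position, gene and class code, for 66426 sites. The totals line, the authors' test columns and the male columns were not used. Chromosome numbers alone were taken from RefSeq (UCB_Xtro_10.0), by matching symbols. Positions are as deposited and need not be those of that build.

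Gene strand was taken from exonic and downstream sites. Gene counts sum a gene's sites and leave out 2709 opposite-strand sites, intronic ones included, which is wider than the planned exclusion of sites opposite to exons; 982 sites of unknown strand were kept. edgeR 4.0.16 (R 4.3.3) gave TMM factors of 0.909 and 1.10. Fold calls were run on simulated counts with counting noise only and changes set well past the fold. This cannot check calls between real frogs. No test was run, since 1 group of 2 frogs allows none.

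The members and lists were chosen with earlier results of these data known. The ribosomal and oxidative phosphorylation lists, the shares without the scaffold site, the count of genes whose leading site was less used in female 2 and the genes shown site by site were added after values were seen. Genes are named by rule: the 30 of highest mean CPM, up to 6 per list, 3 sites per position, the 6 genes with most used sites and the 6 furthest apart each way at a mean of at least 100 CPM, with the 4 markers and the egg coat list. List members past the fold, and cpeb1, h1foo, amy2b, pnliprp2, fabp2, mtfp1, ctrc and pagr1 at its first mention, were chosen after their values were seen. Of the genes this rule names, 1 is not reported here.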

Additional observations from a re-analysis of the deposited data

How the results depend on the processing

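No paired analysis was possible because no test was run and only 1 group of 2 frogs was described. With 2 frogs, a single frog's value always lies within 1 SD of their mean, so leaving a frog out says nothing about the stability of a mean. Of 209 values recomputed under other settings, 191 moved by less than a set limit and 18 by more. The limit was 1.5-fold for counts and 0.05 for correlations. For the shares of genes over 4-fold apart or with the same leading site, it was their counting interval. For all other values it was the spread between the frogs. Of these 209, 10 were chosen after seeing the data, marked here as added. The 209 include the mean CPMs of the 30 most read genes, many with a wide spread between the frogs (7073 ± 8744 in sepp1). A change of scaling could hardly move such values past that spread, so their staying within it says little. The cause was not tested for any. Of the 30 most read genes, 17 to 26 were among the 30 of a single frog. Genes with 2 or more used sites made up 51.4%, and 40.7 to 46.3% in a single frog, 42.8% at 20 reads, 67.3% with no filter and 47.4% when a site needed 5% of the gene's reads. The mean share of reads inside exons was 27.7%, 30.65% without sites lacking a gene, 29.3% without the scaffold site (added) and 29.8% without each library's most read site, which also took the share opposite to exons from 3.13% to 1.61%. The correlation across genes was 0.78 at a mean CPM of at least 10 (added) and 0.60 at 100. Genes over 4-fold apart made up 4.33% with a pseudocount of 5, 8.69% at a mean CPM of at least 1 and 8.15% at 100, and 28.1% were over 2-fold apart. The leading site was the same in 75.2% of genes when a site needed 20 reads and in 84.0% when a gene needed 100 reads in each frog (both added). Opposite-strand sites took the mean summed level of the Balbiani body list from 3171 to 5572.5 CPM and of the follicle cell list from 22.1 to 29.6. Library size alone took the skin list from 2693 to 2706 CPM. Agreement has no value for a single frog. Depth limits the leukocyte, follicle cell and oviduct lists, where 5 of 8, 7 of 10 and 11 of 14 members had under 10 reads summed.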
